A study of Homo sapiens with 9 samples.

Results

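The genes described here are 52 ribosome biogenesis factors, chosen by name as subunits and cofactors of RNA polymerase I, core proteins of small nucleolar ribonucleoproteins (snoRNPs), and proteins that build and mature the small (40S) and large (60S) ribosomal subunits. They are 52 of the 58381 entries with an Ensembl gene identifier in the deposited tables, and the rule uses their names and no measured value. This list and the other lists below were, however, chosen with earlier results of these data known. Shares of called genes within them are therefore descriptive. They were grouped by the step at which they act: 7 genes of RNA polymerase I transcription, 7 nucleolar proteins with several roles, 4 box C/D and 4 box H/ACA snoRNP proteins, 11 of the small subunit processome, 6 of late 40S maturation and export, and 13 of 60S assembly.

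RNA sequencing was done on HK1, an established human nasopharyngeal carcinoma cell line. All 9 libraries came from this line, grown in DMEM with serum and transfected with siRNA at 100 nM for 48 h: 3 received a control siRNA without a target, 3 an E2F1 siRNA and 3 an E2F3 siRNA. The targets are transcription factors bound by the retinoblastoma protein, and both activate genes needed to enter S phase. The labels do not give the siRNA sequences or whether the 3 libraries of a group were separate cultures, so a p-value here reflects spread from library to library alone, which may be technical.

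Ribosomes are assembled mostly in the nucleolus. RNA polymerase I transcribes a long precursor ribosomal RNA, which snoRNPs modify base by base while a large assembly called the small subunit processome folds and cuts it. Separate sets of factors then mature the small and the large subunit before export to the cytoplasm, and in proliferating tumour cells the genes of these factors are classic targets of the transcription factor MYC, which binds the E-box CACGTG.

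Levels were given as FPKM (fragments for each kilobase of a transcript, relative to the size of the library), so levels are compared between genes per length. Changes are log2 differences on the log2(FPKM + 1) scale, which understates those of low genes, and a gene was called where the limma p-value adjusted over all 13777 genes tested was under 0.05. Both siRNAs lowered their own target. E2F1 was at 19.85, 19.53 and 20.2 FPKM in control and at 7.17, 7.95 and 7.33 under E2F1 siRNA (log2 -1.30, SE 0.06; adjusted p = 3.71e-07), and E2F3 was at 24.74, 27.17 and 24.42 FPKM in control and at 12.61, 10.52 and 11.02 under E2F3 siRNA (log2 -1.10, SE 0.07; adjusted p = 3.58e-06). The step size of low FPKM values of short genes put the depth of the libraries at 0.86 to 1.22 times that of control replicate 1. Of 9 epithelial and basal squamous markers, 9 were at 1 FPKM or more in every library, while the summed leukocyte markers (6 genes) reached at most 8.73 FPKM and the endothelial markers (4 genes) at most 1.87. The 6 fibroblast markers summed to 14.1 to 20.8 FPKM over the 9 libraries, nearly all of it COL1A1. The epithelial sum was 2260 to 2310 FPKM in the control libraries, 1670 to 1740 after E2F1 siRNA and 1510 to 1600 after E2F3 siRNA. Most of its markers fell, and no marker of this list was called higher in either knockdown. CDH1, KRT5, KRT14, KRT17, KRT18 and TP63 were called lower after E2F1 siRNA. KRT5, KRT14, KRT17, KRT18, KRT19, TP63 and SFN were called lower after E2F3 siRNA. KRT17 had means of 767, 400 and 368 FPKM in the same order, and KRT19 was low throughout (1.01 to 1.83 FPKM). EPCAM was not called in either knockdown (175, 195 and 177 FPKM). SFN was not called after E2F1 siRNA (348 and 345 FPKM) and fell after E2F3 siRNA (274 FPKM). Mitochondrial genes made up 16.1 to 17.0%, 14.4 to 15.8% and 16.9 to 17.5% of all FPKM in the same order. Whether these shifts have a part in the changes below was not tested. In bulk libraries, fewer cells of a kind and less RNA per cell cannot be told apart.

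All 52 genes were expressed and tested. Each was at 1 FPKM or more in all 9 libraries, and the median of their control means was 44.3 FPKM, against 12.8 FPKM for all genes tested. The 5 most abundant were the histone chaperone NPM1 (2299 FPKM, SD 69.7, n = 3), nucleolin, NCL (549 FPKM, SD 27.2), the rRNA methyltransferase fibrillarin, FBL (426 FPKM, SD 11.3), and the H/ACA core proteins NHP2 (343 FPKM, SD 25.4) and NOP10 (295 FPKM, SD 8.98). The control libraries of these 5 genes did not overlap between any neighbours in that order. In control cells 13 of the genes had a mean above 100 FPKM, 32 lay between 20 and 100, and 7 were below 20. The lowest entries were DHX37 (10.5 FPKM, SD 0.423) and PWP2 (1.34 FPKM, SD 0.271). The PWP2 value is uncertain, because its reads may be split with a near-identical gene entry, described below. The sum of that pair was 12.09 to 13.5 FPKM in the control libraries. Together the 52 genes made up 0.801 to 0.81% of all FPKM in the control libraries, 0.917 to 1.01% after E2F1 siRNA and 0.812 to 0.847% after E2F3 siRNA. All 3 libraries of each knockdown lay above all 3 control libraries in this share, and the E2F1 siRNA libraries lay above the E2F3 siRNA libraries.

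Many promoters of these genes held a motif that the choice by name did not use. RefSeq start sites (GRCh38.p14, 250 bases before to 50 after the start) were matched for 45 of the 52 genes, and the palindromic E-box CACGTG occurred in 22 of them (48.9%). The same letters read alike on both strands. Counted by gene, at any of its start sites, they occurred in 8.77% of all 27305 genes of that table. The share was 12.7% of the 9777 tested genes found there. Counted by promoter, it was 7.26% of all 35116 promoters. The E2F element was searched as TTTCCCGC, TTTGGCGC and TTTCGCGC on both strands, none of which overlaps the E-box. PES1 alone of the 45 held one of these forms (2.22%), against 3.3% of all genes there and 5.69% of the tested genes. Counted by promoter, the share was 2.74% of all promoters. A match describes letters in this window and is not evidence of binding. POLR1E, NOLC1, TCOF1, NOP58, RRP12, BOP1 and RRP1B were not matched.

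Most matches lay close to the start site. The promoters of these 22 genes held 25 E-boxes, including those at both RefSeq start sites of EBNA1BP2. Of the 25, 20 (80.0%) began between 30 bases before and 45 bases after the start, against 702 of 2821 (24.9%) over all promoters. That window was chosen after the positions were seen. The following 30-base windows, 5′ to 3′ on the gene's strand with the E-box in capitals, show it in genes of 5 steps, from C/D snoRNPs to 60S assembly.
RRP9 (chr3:51941892-51941921, minus strand): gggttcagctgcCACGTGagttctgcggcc
FBL (chr19:39846356-39846385, minus strand): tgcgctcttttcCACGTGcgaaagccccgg
UTP20 (chr12:101280083-101280112, plus strand): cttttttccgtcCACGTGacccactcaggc
NOP14 (chr4:2963374-2963403, minus strand): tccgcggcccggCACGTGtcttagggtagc
WDR43 (chr2:28894658-28894687, plus strand): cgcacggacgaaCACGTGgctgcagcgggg
GAR1 (chr4:109815781-109815810, plus strand): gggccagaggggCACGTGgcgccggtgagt
LTV1 (chr6:143843354-143843383, plus strand): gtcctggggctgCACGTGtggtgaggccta
BYSL (chr6:41921515-41921544, plus strand): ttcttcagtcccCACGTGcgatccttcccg
MRTO4 (chr1:19251807-19251836, plus strand): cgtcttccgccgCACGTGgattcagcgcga
The next promoters run from 250 bases before the start to the 30th base of the transcript and are shown because UTP18 and NOP10 hold the E-box 2 times each, and PES1 holds both an E-box and, 155 bases before the start, the form of the E2F element that reads TTTCCCGC on the other strand. Capitals mark these motifs.
UTP18 (chr17:51260296-51260575, plus strand): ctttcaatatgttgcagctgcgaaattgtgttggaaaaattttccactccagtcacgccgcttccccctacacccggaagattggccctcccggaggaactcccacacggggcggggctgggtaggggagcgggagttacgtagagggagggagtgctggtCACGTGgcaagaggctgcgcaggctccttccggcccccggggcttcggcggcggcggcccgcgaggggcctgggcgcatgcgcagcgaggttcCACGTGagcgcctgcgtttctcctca
NOP10 (chr15:34343107-34343386, minus strand): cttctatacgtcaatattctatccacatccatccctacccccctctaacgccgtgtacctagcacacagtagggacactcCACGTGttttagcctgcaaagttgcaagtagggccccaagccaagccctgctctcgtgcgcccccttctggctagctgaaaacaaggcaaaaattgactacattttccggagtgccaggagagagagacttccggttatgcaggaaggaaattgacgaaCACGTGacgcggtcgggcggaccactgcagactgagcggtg
PES1 (chr22:30591881-30592160, minus strand): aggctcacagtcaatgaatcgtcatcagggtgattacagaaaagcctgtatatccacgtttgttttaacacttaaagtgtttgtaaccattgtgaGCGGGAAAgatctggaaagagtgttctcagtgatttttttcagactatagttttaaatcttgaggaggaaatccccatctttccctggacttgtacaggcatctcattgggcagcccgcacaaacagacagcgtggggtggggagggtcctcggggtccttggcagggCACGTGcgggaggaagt

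**Figure D1:**
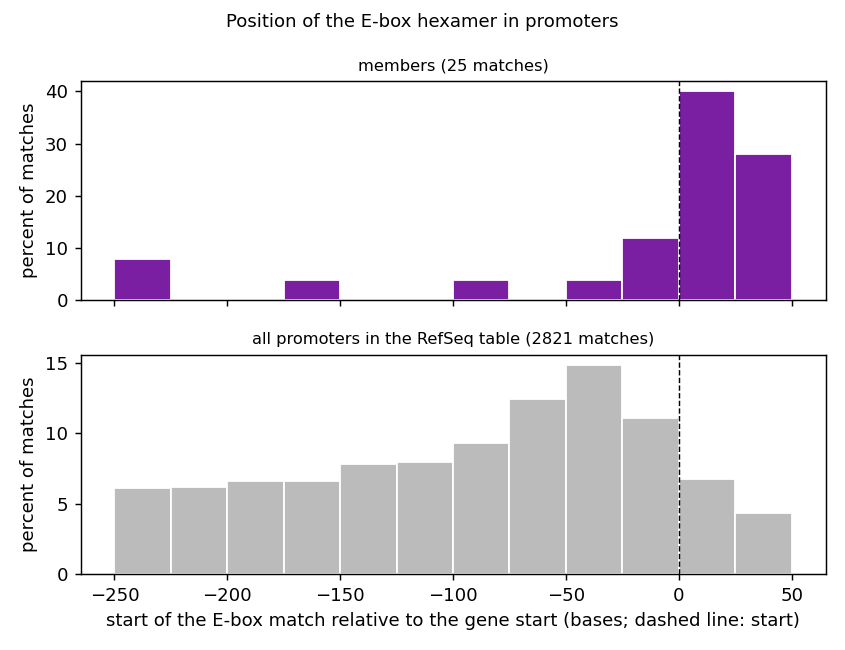
Start of each CACGTG match relative to the RefSeq gene start, in bins of 25 bases, as the percent of matches: 25 matches in promoters of the 52 genes (top) and 2821 in all promoters of the table (bottom); the y axes differ. Of the 25 matches, 10 and 7 fall in the bins that begin at 0 and at 25 bases, to the right of the dashed line at the start.

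After E2F1 siRNA the genes of ribosome biogenesis were higher as a group. Of the 52, 33 rose (63.5%) and 1 fell, while 20.5% of all 13777 genes rose and 17.3% fell. Here and below, the shares were not matched for abundance. The median control mean was 44.3 FPKM for the 52 genes and 12.8 FPKM for all genes tested. The median change was 0.25 on the log2 scale (range -0.42 to 1.74), against 0.03 for all genes tested. The E2F1 siRNA libraries did not overlap the control libraries for 41 of the 52 genes, where 50.3% of all genes did not overlap. The largest rises were those of DHX37, NOLC1 and TCOF1, and the gene that fell was RRP1B.

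After E2F3 siRNA the response was mixed. Of the 52 genes, 16 rose (30.8%, against 21.1% of all genes) and 9 fell (17.3%, close to the 16.4% of all genes), with a median of 0.07 (range -0.57 to 0.98) against 0.04 for all genes tested. The median of the 52 was 0.03 with RLE (median of ratios) scaling, and at an adjusted p under 0.01 the higher calls were 10 of the 52 and 1723 of all genes. Libraries did not overlap for 30 of the genes, where the share over all genes was 49.5%. Of the 52 entries, each taken alone, NOLC1, POLR1B and DHX37 rose most, and RRP1, TSR1, BYSL and RRP12 fell most. PWP2 was not called, but reads may be split between it and a near-identical gene entry, described below. The sum of that pair was 12.09 to 13.5 FPKM in control and 5.77 to 7.01 after E2F3 siRNA. Both knockdowns were compared with the same 3 control libraries, so their changes are given side by side and are not independent.

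In the direct comparison, 32 of the 52 genes (61.5%) were lower after E2F3 siRNA than after E2F1 siRNA and 2 were higher, NIP7 and RRP1B. Over all genes tested, 22% were lower and 23.5% higher. The median difference was -0.22 (range -1.17 to 0.63), against 0.02 for all genes, and libraries did not overlap for 36 genes (53.8% over all genes).

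**Figure D2:**
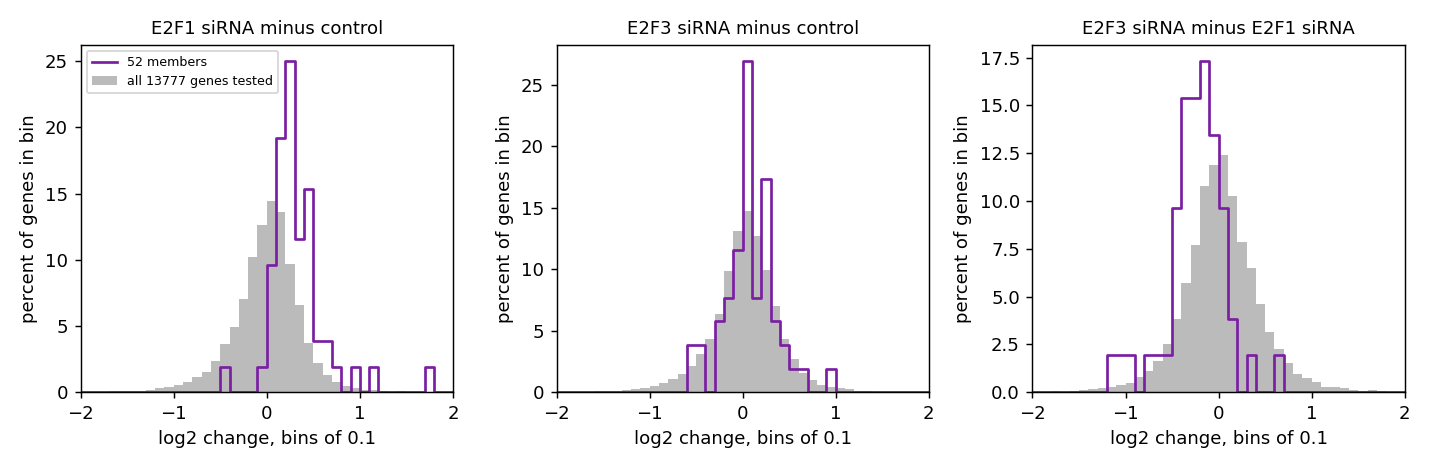
Percent of genes in bins of 0.1 of the log2 change (x axis) for the 52 genes (line) and all 13777 genes tested (grey), in the 3 comparisons. The 52 genes are shifted to the right after E2F1 siRNA (median 0.25), lie around the other genes after E2F3 siRNA (median 0.07), and are shifted to the left in the direct comparison (median -0.22).

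**Figure D3:**
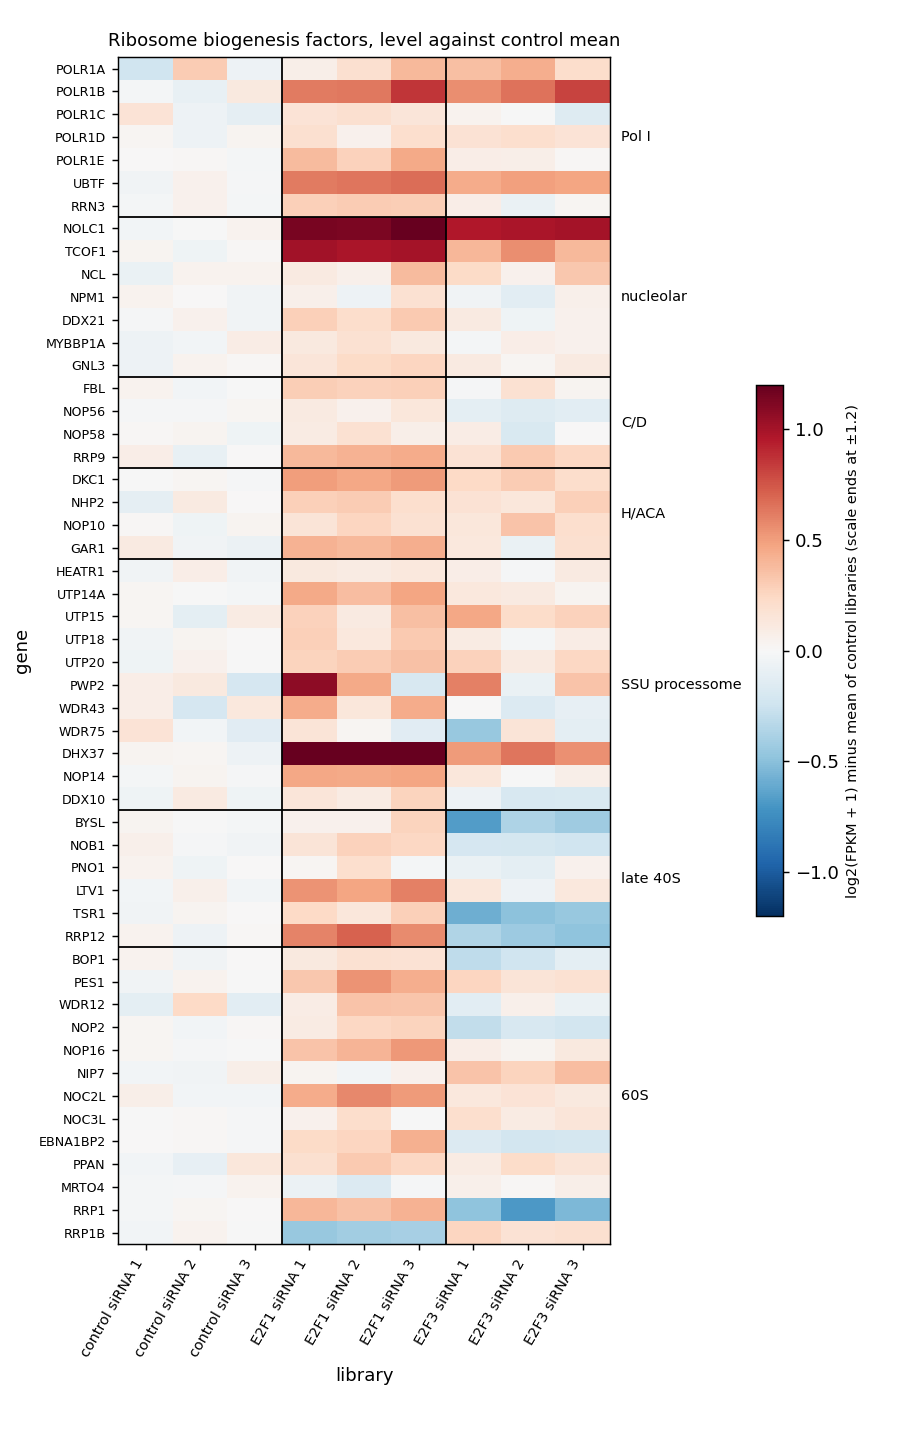
Level of each of the 52 genes (rows, grouped by step) in each of the 9 libraries (columns), as log2(FPKM + 1) minus the control mean; the colour scale ends at 1.2 in either direction. After E2F1 siRNA most rows are red in every step, while the E2F3 siRNA columns hold red rows for UBTF, POLR1B and NOLC1 and blue rows for BYSL, TSR1, RRP12 and RRP1.

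Of the 7 genes of RNA polymerase I transcription, 5 rose (71.4%) and 0 fell after E2F1 siRNA (median 0.30). After E2F3 siRNA 3 rose (42.9%) and 0 fell (median 0.18). Over all genes tested, 20.5% rose and 17.3% fell after E2F1 siRNA, and 21.1% rose and 16.4% fell after E2F3 siRNA. The counts of the steps below are read against these shares. POLR1B, a large catalytic subunit of the polymerase, was at 23.94, 22.76 and 26.49 FPKM in control, 38.07, 38.35 and 44.82 with E2F1 siRNA, and 36.3, 38.8 and 43.33 with E2F3 siRNA. Every library of either knockdown was above every control library, and the knockdowns overlapped each other. In log2 terms the rise was 0.70 after E2F1 siRNA (SE 0.09; adjusted p = 1.70e-04 by limma) and 0.67 after E2F3 siRNA (SE 0.09; adjusted p = 2.57e-04), and the difference between them was -0.03 (95% interval -0.23 to 0.16; adjusted p = 0.787).

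UBTF, which binds the ribosomal DNA promoter and keeps the repeats open, was at 35.19, 37.45 and 35.89 FPKM in control, 56.3, 56.86 and 58.04 with E2F1 siRNA, and 49.53, 51.38 and 50.51 with E2F3 siRNA. The 3 groups were apart from each other, with the control libraries lowest and the E2F1 siRNA libraries highest. The rises were 0.64 (SE 0.04; adjusted p = 2.76e-06) and 0.47 (SE 0.04; adjusted p = 2.27e-05), and the difference of -0.17 was called (adjusted p = 0.00673). POLR1E, a subunit of the initiation-competent polymerase, was at 34.71, 35.15 and 34.21 FPKM in control, 45.54, 42.27 and 47.88 with E2F1 siRNA, and 36.72, 36.53 and 34.94 with E2F3 siRNA. It rose by 0.37 after E2F1 siRNA (SE 0.05; adjusted p = 3.83e-04), and its E2F3 siRNA libraries overlapped the control libraries (log2 0.05; adjusted p = 0.445). RRN3, the factor that carries the polymerase to the promoter, was at 33.16, 35.11 and 33.12 FPKM in control, 41.39, 42.1 and 41.59 with E2F1 siRNA, and 35.77, 31.9 and 34.28 with E2F3 siRNA. It too stood apart from the control libraries after E2F1 siRNA (log2 0.30, SE 0.05; adjusted p = 0.00143) and overlapped them after E2F3 siRNA (log2 0.01; adjusted p = 0.93). Of its 50-base stretches, 26.9% also occur in other genes, the closest of which was listed at 0 in all 9 libraries.

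The calls of the other polymerase subunits depended on single libraries. POLR1C, shared with RNA polymerase III, was at 52.95, 45.15 and 43.68 FPKM in control, 52.77, 53.95 and 52.36 with E2F1 siRNA, and 48.39, 46.98 and 42.27 with E2F3 siRNA. Neither change from control was called, and the difference between the knockdowns was called (log2 -0.21; adjusted p = 0.0464) but lost when control replicate 2, any E2F1 siRNA library or E2F3 siRNA replicate 2 or 3 was left out (log2 -0.22 to -0.15). POLR1D, also shared with RNA polymerase III, rose by 0.15 after E2F1 siRNA (adjusted p = 0.0342) and by 0.18 after E2F3 siRNA (adjusted p = 0.0146). The first call was lost without control replicate 1 or 2 or E2F1 siRNA replicate 1 or 3 (log2 0.12 to 0.16), and the other without control replicate 2 (log2 0.15; adjusted p = 0.0538). POLR1A, the largest subunit, was not called in any comparison (log2 0.22 and 0.33 against control), with control libraries between 15.72 and 23.31 FPKM. Without control replicate 2, the highest of them, both of its changes were called (log2 0.37 and 0.49). POLR1C was called higher after E2F1 siRNA without control replicate 1 (log2 0.25).

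**Figure D4:**
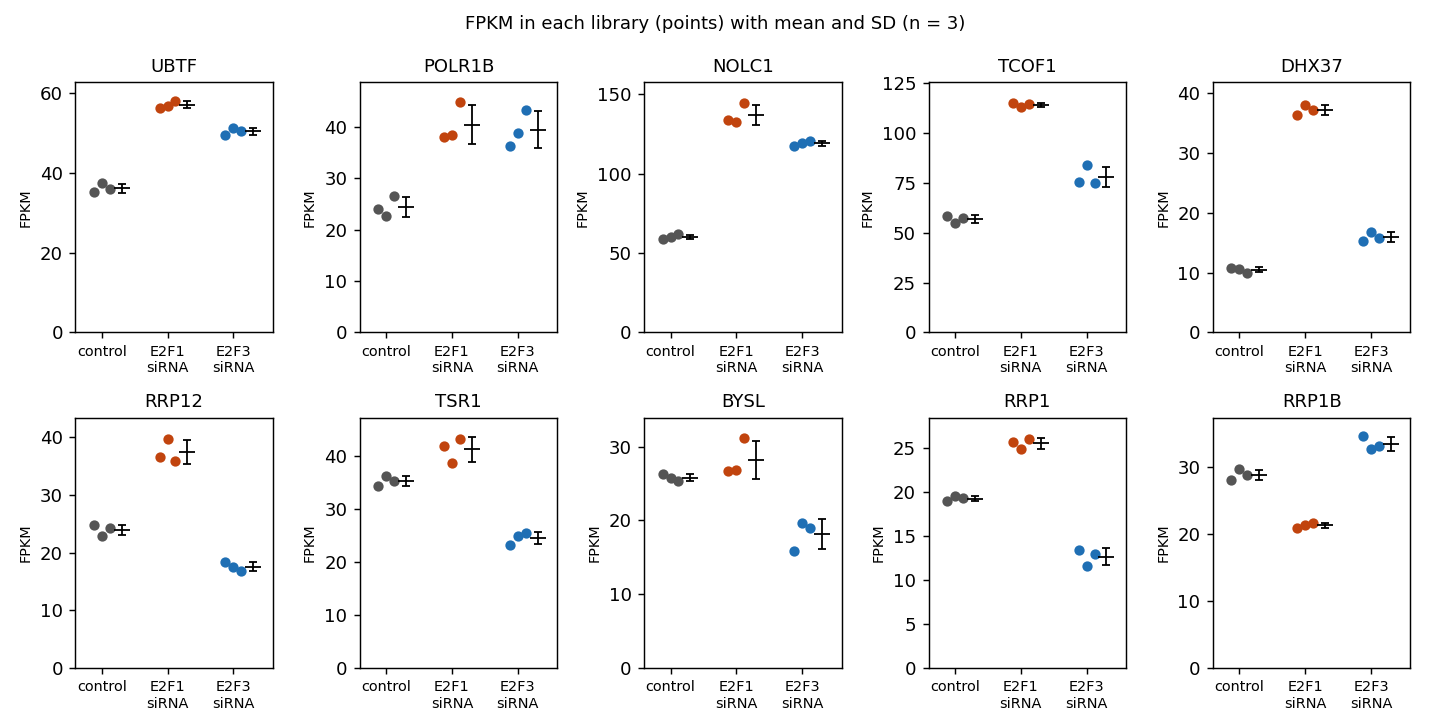
FPKM of 10 genes in each library (points; y axes start at 0) with the mean and SD of the 3 libraries of each group. UBTF, POLR1B, NOLC1, TCOF1 and DHX37 lie above control in both knockdowns; RRP12, TSR1 and RRP1 lie above control after E2F1 siRNA and below it after E2F3 siRNA; BYSL lies below control after E2F3 siRNA, and RRP1B shows the opposite order to RRP1.

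Among nucleolar proteins with several roles, 4 of 7 rose after E2F1 siRNA (57.1%, against 20.5% of all genes, median 0.21). After E2F3 siRNA 2 rose (28.6%, near the 21.1% of all genes, median 0.08), and 0 fell in either knockdown. NOLC1, a chaperone of snoRNPs that also binds RNA polymerase I, was at 58.73, 59.88 and 61.7 FPKM in control, 133.63, 132.53 and 144.3 with E2F1 siRNA, and 117.62, 119.24 and 120.73 with E2F3 siRNA. It rose in both knockdowns (log2 1.17, SE 0.04, adjusted p = 9.38e-08; and log2 0.98, SE 0.04, adjusted p = 3.04e-07), and the E2F1 siRNA libraries were the higher ones (difference -0.20; adjusted p = 0.00414). TCOF1, the nucleolar protein treacle, which works in ribosomal DNA transcription and is mutated in Treacher Collins syndrome, was at 58.28, 54.75 and 57.38 FPKM in control, 114.9, 112.84 and 114.72 with E2F1 siRNA, and 75.24, 83.82 and 74.71 with E2F3 siRNA. Its 3 groups did not overlap. The rise was 0.99 after E2F1 siRNA (SE 0.05; adjusted p = 6.52e-07) and 0.45 after E2F3 siRNA (SE 0.05; adjusted p = 1.03e-04), a difference of -0.55 (adjusted p = 1.91e-05).

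DDX21, an RNA helicase of the nucleolus, was at 114.42, 120.2 and 112.59 FPKM in control, 141.57, 134.34 and 144.34 with E2F1 siRNA, and 124.41, 111.62 and 120.31 with E2F3 siRNA. It rose after E2F1 siRNA (log2 0.27; adjusted p = 0.00188) and overlapped control after E2F3 siRNA (log2 0.04; adjusted p = 0.602). GNL3, the GTP-binding protein nucleostemin, was at 144.67, 155.07 and 152.66 FPKM in control, 167.21, 176.94 and 180.79 with E2F1 siRNA, and 162.47, 153.08 and 162.89 with E2F3 siRNA. It rose by 0.21 after E2F1 siRNA (adjusted p = 0.00432). Its difference between the knockdowns (log2 -0.13; adjusted p = 0.0359) was lost when control replicate 3, E2F1 siRNA replicate 2 or 3, or E2F3 siRNA replicate 1 or 2 was left out (log2 -0.15 to -0.10). The 3 members not called in any comparison were NCL, NPM1 and the Myb-binding protein MYBBP1A, with changes between -0.03 and 0.20 on the log2 scale against control. NCL was called higher after E2F3 siRNA without E2F1 siRNA replicate 3 or E2F3 siRNA replicate 2 (log2 0.20 and 0.28), and MYBBP1A after E2F1 siRNA without control replicate 3 (log2 0.18). For NPM1, 44.4% of the 50-base stretches also occur in other genes, mostly pseudogenes, so that its level is uncertain by whatever the counting did with such reads.

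Box H/ACA snoRNPs, which convert uridine to pseudouridine and also form part of telomerase, rose throughout after E2F1 siRNA, with 4 of 4 called higher (median 0.34). After E2F3 siRNA 3 of 4 were called higher (median 0.21). The shares of all genes tested that were called higher were 20.5% after E2F1 siRNA and 21.1% after E2F3 siRNA. DKC1, the catalytic subunit dyskerin, was at 72.74, 73.9 and 71.9 FPKM in control, 103.7, 100.93 and 103.93 with E2F1 siRNA, and 86.42, 90.03 and 84.65 with E2F3 siRNA. Its groups were all apart, with a rise of 0.49 after E2F1 siRNA (SE 0.04; adjusted p = 7.81e-06), a rise of 0.25 after E2F3 siRNA (SE 0.04; adjusted p = 5.93e-04) and a difference of -0.24 (adjusted p = 6.40e-04). GAR1, another core protein of the particle, was at 48.74, 43.94 and 42.98 FPKM in control, 60.54, 59.54 and 61.47 with E2F1 siRNA, and 49.41, 42.59 and 51.7 with E2F3 siRNA. It rose after E2F1 siRNA (log2 0.41; adjusted p = 0.00157) and not by the test after E2F3 siRNA (log2 0.08; adjusted p = 0.43).

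The abundant core proteins NHP2 and NOP10 rose in both knockdowns. NHP2 was at 317.8, 368.49 and 344.13 FPKM in control, 419.45, 424.8 and 394.76 with E2F1 siRNA, and 387.62, 376.2 and 419.1 with E2F3 siRNA (log2 0.27 and 0.20; adjusted p = 0.00605 and 0.0258). NOP10, whose promoter with its pair of E-boxes is shown above, was at 297.45, 285.31 and 302.85 FPKM in control, 328.98, 353.37 and 335.58 with E2F1 siRNA, and 325.37, 374.85 and 339.49 with E2F3 siRNA (log2 0.20 and 0.23; adjusted p = 0.0152 and 0.00817). Their differences between the knockdowns were not called (log2 -0.07, 95% interval -0.20 to 0.07, and log2 0.03, 95% interval -0.09 to 0.15). The NHP2 call after E2F3 siRNA was lost without control replicate 1 or 3 or E2F3 siRNA replicate 3 (log2 0.15 to 0.20), and the NOP10 call after E2F1 siRNA without control replicate 2 or E2F1 siRNA replicate 2 (log2 0.17 to 0.18). NHP2 shares 27.4% of its exonic bases with RMND5B on the opposite strand, which was at most at 12.54 FPKM; whether the counting used strand is not given in the sources used here.

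Box C/D snoRNPs add methyl groups to ribose. After E2F1 siRNA 2 of the 4 genes rose (50%, against 20.5% of all genes, median 0.20). After E2F3 siRNA 1 rose and 1 fell (25% each, against 21.1% and 16.4% of all genes, median 0.02). RRP9, a protein of the U3 particle that starts processome assembly, was at 32.69, 28.96 and 30.94 FPKM in control, 40.8, 41.41 and 42.4 with E2F1 siRNA, and 34.9, 38.68 and 36.8 with E2F3 siRNA. Both knockdowns lay above control (log2 0.42, adjusted p = 3.17e-04, and 0.25, adjusted p = 0.00735). The difference of -0.17 between them (adjusted p = 0.0327) was lost without any 1 E2F1 siRNA library or E2F3 siRNA replicate 1 or 3 (log2 -0.18 to -0.14). FBL, the methyltransferase, was at 437.79, 415.28 and 424.36 FPKM in control, 523.8, 516.67 and 520.48 with E2F1 siRNA, and 420.92, 482.82 and 434.55 with E2F3 siRNA. It rose after E2F1 siRNA (log2 0.29; adjusted p = 0.0012), while its E2F3 siRNA libraries spread around control (log2 0.06; adjusted p = 0.325).

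NOP56, a scaffold protein of the same particle, was at 221.28, 221.42 and 227.72 FPKM in control, 241.03, 230.94 and 245.03 with E2F1 siRNA, and 205.45, 200.05 and 204.94 with E2F3 siRNA. The libraries were apart in both directions, but the change after E2F1 siRNA missed the threshold (log2 0.10; adjusted p = 0.0513), and that after E2F3 siRNA was called lower (log2 -0.13; adjusted p = 0.0124) and was at the threshold without control replicate 3 (log2 -0.12; adjusted p = 0.05). Its paralog NOP58, which pairs with it in each particle, was not called in any comparison (log2 0.12 and -0.03 against control). Leaving out 1 library made the NOP56 rise after E2F1 siRNA a call (without E2F1 siRNA replicate 2, log2 0.12) and the NOP58 difference between the knockdowns a call (without E2F3 siRNA replicate 1, log2 -0.21). The ratio of NOP56 to NOP58 was 2.51 to 2.74 in the control libraries, 2.36 to 2.7 after E2F1 siRNA and 2.24 to 2.64 after E2F3 siRNA, and these ranges overlap.

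Proteins of the small subunit processome gave the largest single change. After E2F1 siRNA 6 of 11 rose (54.5%, against 20.5% of all genes, median 0.31). After E2F3 siRNA 3 of 11 rose (27.3%, near the 21.1% of all genes, median 0.07). As single entries, 0 fell in either knockdown. The sum of PWP2 and its near-identical entry, given below, was lower after E2F3 siRNA than in control. DHX37 (12:124946825-124989122, GRCh38), the helicase that releases the U3 snoRNA from the precursor so that the small subunit can fold, was at 10.75, 10.67 and 9.98 FPKM in control, 36.29, 38.05 and 37.21 with E2F1 siRNA, and 15.3, 16.86 and 15.79 with E2F3 siRNA. Each group lay apart from both others, with the E2F1 siRNA libraries far above. The rise was 1.74 after E2F1 siRNA (SE 0.06; adjusted p = 5.26e-08), a 3.55-fold rise of the mean FPKM, and 0.57 after E2F3 siRNA (SE 0.06; adjusted p = 4.82e-05), a difference of -1.17 (adjusted p = 3.19e-07). UTP14A, the partner that activates this helicase, was at 38.91, 38.13 and 37.53 FPKM in control, 52.72, 49.63 and 53.29 with E2F1 siRNA, and 41.89, 41.3 and 39.01 with E2F3 siRNA. It rose by 0.43 after E2F1 siRNA (SE 0.05; adjusted p = 7.46e-05) and was at 0.09 after E2F3 siRNA (adjusted p = 0.159). The ratio of DHX37 to UTP14A was 0.266 to 0.28 in the control libraries, 0.688 to 0.767 after E2F1 siRNA and 0.365 to 0.408 after E2F3 siRNA, with no overlap between groups.

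NOP14, a scaffold of the processome, was at 21.25, 22.09 and 21.44 FPKM in control, 30.07, 29.92 and 30.34 with E2F1 siRNA, and 23.76, 21.59 and 22.75 with E2F3 siRNA. It rose by 0.46 after E2F1 siRNA (SE 0.05; adjusted p = 6.84e-05) and overlapped control after E2F3 siRNA (log2 0.07; adjusted p = 0.308). WDR43, of the subcomplex that first joins the nascent precursor, was at 48.47, 39.94 and 50.11 FPKM in control, 63.04, 50.69 and 63.05 with E2F1 siRNA, and 46.17, 40.88 and 42.97 with E2F3 siRNA. Replicate 2 was the lowest library of each group for this gene. The rise after E2F1 siRNA (log2 0.34; adjusted p = 0.0256) was lost without control replicate 2 or E2F1 siRNA replicate 1 or 3 (log2 0.25 to 0.29), and the difference between the knockdowns was -0.43 (adjusted p = 0.00754). UTP15, of the same subcomplex, was at 13.1, 11.84 and 13.85 FPKM in control, 15.79, 14.01 and 16.91 with E2F1 siRNA, and 18.15, 15.22 and 15.83 with E2F3 siRNA. It was called after E2F3 siRNA (log2 0.32; adjusted p = 0.0203) and missed the threshold after E2F1 siRNA (log2 0.25; adjusted p = 0.0556). The call was lost without control replicate 2 or E2F3 siRNA replicate 1 (log2 0.26 and 0.25), and the change after E2F1 siRNA was called without E2F1 siRNA replicate 2 or E2F3 siRNA replicate 1 (log2 0.32 and 0.25).

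DDX10, a helicase of the processome, was at 12.1, 13.65 and 12.11 FPKM in control, 14.08, 13.55 and 15.4 with E2F1 siRNA, and 12, 10.94 and 10.97 with E2F3 siRNA. Neither change from control was called (log2 0.17 and -0.15), and the difference between them was (log2 -0.32; adjusted p = 0.00599). The large scaffold UTP20 rose by 0.31 and 0.21 in the E2F1 and E2F3 knockdowns (adjusted p = 0.00334 and 0.0239), the latter lost without control replicate 1 or 3 or E2F3 siRNA replicate 1 or 3 (log2 0.18 to 0.21). UTP18, whose promoter is shown above, rose after E2F1 siRNA (log2 0.24; adjusted p = 0.00966), and its difference between the knockdowns (log2 -0.19; adjusted p = 0.028) was lost without E2F1 siRNA replicate 1 or 3 or E2F3 siRNA replicate 2 (log2 -0.17 to -0.15). HEATR1, WDR75 and PWP2 were not called in any comparison. HEATR1 (control mean 29.1 FPKM) shares 23.2% of its exonic bases with LGALS8 on the opposite strand, which reached 77.3 FPKM. Its level is therefore uncertain where the strand use of the counting is not given. WDR75 varied widely after E2F3 siRNA, at 86.86, 132.73 and 110.01 FPKM.

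PWP2, a core protein of another processome subcomplex, needs separate mention, and the values that follow were looked up after those of PWP2 were seen. It was at 1.03 to 1.53 FPKM in the control libraries, 1.04 to 3.9 after E2F1 siRNA and 1.2 to 2.55 after E2F3 siRNA, and was called higher after E2F1 siRNA without replicate 3 of that group (log2 0.77). Of the 50-base stretches of its longest coding transcript, 89.7% also occur in FP565260.1, a near-identical gene model on the same chromosome, so that reads of the pair cannot be assigned with certainty. FP565260.1 was at 10.63, 11.97 and 11.2 FPKM in control, 10.42, 11.64 and 12.97 with E2F1 siRNA, and 4.46, 4.81 and 3.82 with E2F3 siRNA. It was called lower after E2F3 siRNA (log2 -1.2, SE 0.10; adjusted p = 1.41e-05) and not called after E2F1 siRNA (log2 0.04; adjusted p = 0.755). The sum of both entries was 12.09 to 13.5 FPKM in the control libraries, 13.84 to 14.32 after E2F1 siRNA and 5.77 to 7.01 after E2F3 siRNA, with no overlap between the 3 groups.

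In late 40S maturation and export the calls of the knockdowns went in opposite directions. After E2F1 siRNA 4 of 6 rose (66.7%, against 20.5% of all genes) and 0 fell (median 0.22). After E2F3 siRNA 0 rose and 4 fell (66.7%, against 16.4% of all genes, median -0.32). In the direct comparison 5 of 6 were lower after E2F3 siRNA (83.3%, against 22% of all genes, median -0.54). RRP12, which helps to export both subunits, was at 24.71, 22.95 and 24.18 FPKM in control, 36.67, 39.8 and 35.92 with E2F1 siRNA, and 18.37, 17.42 and 16.88 with E2F3 siRNA. Control lay between the knockdowns with no overlap, with a rise of 0.62 after E2F1 siRNA (SE 0.06; adjusted p = 2.71e-05), a log2 change of -0.43 after E2F3 siRNA (SE 0.06; adjusted p = 3.42e-04) and a difference of -1.05 (SE 0.06; adjusted p = 7.08e-07). TSR1, a GTPase-like protein of late precursors, was at 34.32, 36.21 and 35.31 FPKM in control, 41.89, 38.73 and 43.22 with E2F1 siRNA, and 23.2, 24.84 and 25.55 with E2F3 siRNA. It rose by 0.22 (SE 0.06; adjusted p = 0.0123) and was lower by the test after E2F3 siRNA (log2 -0.51, SE 0.06; adjusted p = 1e-04).

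NOB1, the endonuclease that makes the last cut of the small subunit rRNA, was at 104.28, 99.27 and 96.86 FPKM in control, 111.56, 121.54 and 118.84 with E2F1 siRNA, and 86.75, 86.29 and 84.43 with E2F3 siRNA. It too had control in the middle (log2 0.23, adjusted p = 0.00289, and log2 -0.22, adjusted p = 0.00369). BYSL, a protein of nuclear small subunit precursors, was at 26.36, 25.77 and 25.33 FPKM in control, 26.72, 26.8 and 31.25 with E2F1 siRNA, and 15.81, 19.7 and 18.95 with E2F3 siRNA. It fell after E2F3 siRNA (log2 -0.49, SE 0.09; adjusted p = 0.00172), and its change after E2F1 siRNA was not called (log2 0.12; adjusted p = 0.303). LTV1, a protein that leaves the late precursors, was at 47.11, 50.4 and 46.93 FPKM in control, 70.21, 67.06 and 73.79 with E2F1 siRNA, and 53.07, 46.05 and 52.59 with E2F3 siRNA. It rose by 0.54 after E2F1 siRNA (SE 0.06; adjusted p = 1.26e-04) and overlapped control after E2F3 siRNA (log2 0.07; adjusted p = 0.436). PNO1, the partner of NOB1, was not called in any comparison (log2 0.07 and -0.05). TSR1 shares 20.7% of its exonic bases with SRR on the opposite strand (at most 3.49 FPKM), and 30.4% of the 50-base stretches of LTV1 occur in other genes, the closest listed at 0 in every library.

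**Figure D5:**
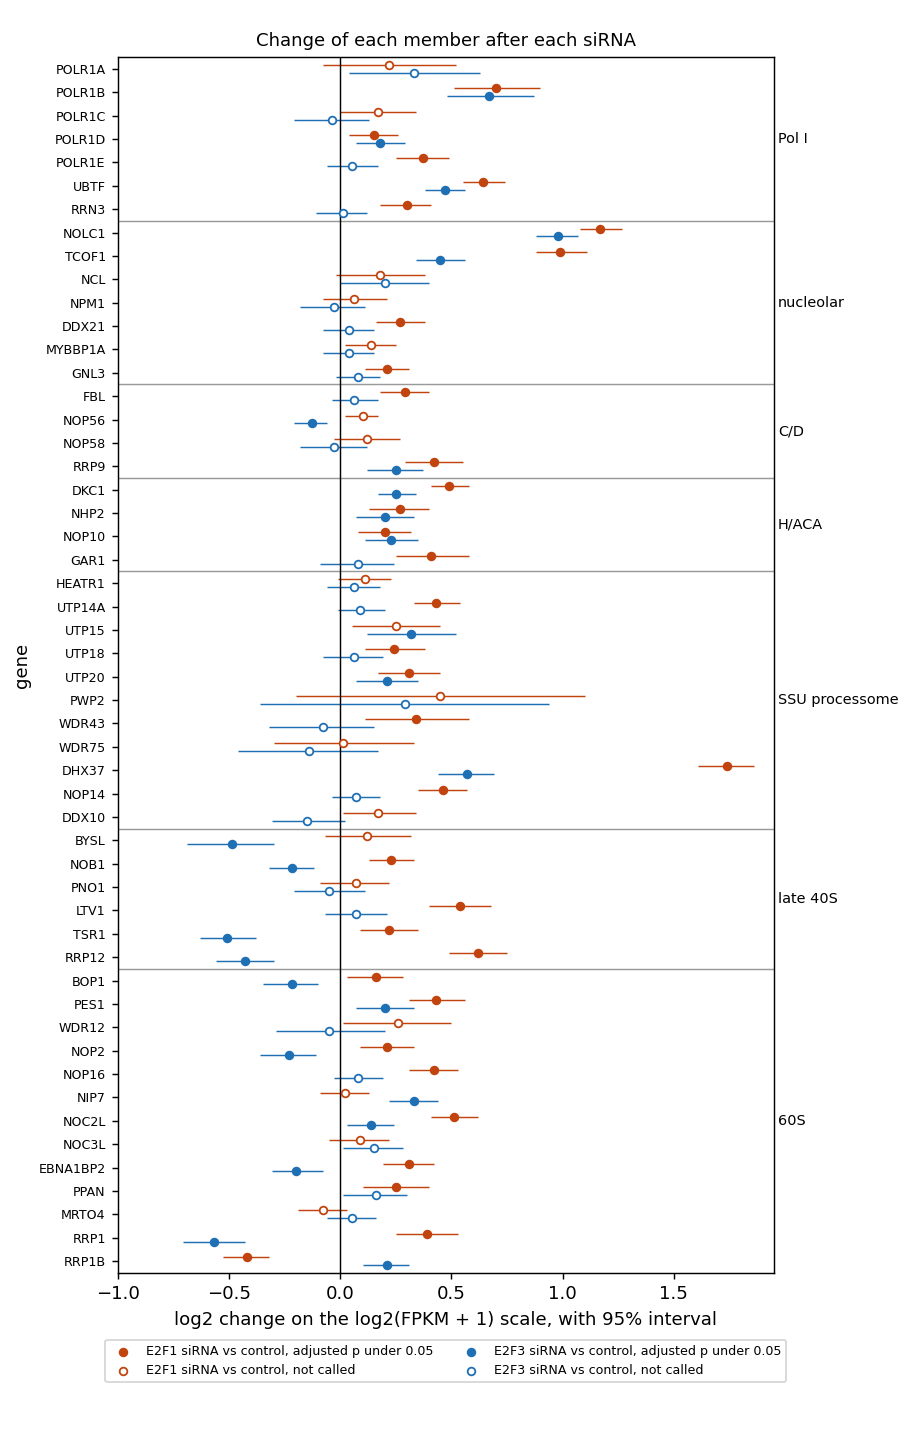
Log2 change of each of the 52 genes after E2F1 siRNA (orange) and after E2F3 siRNA (blue) against the shared control, with the 95% interval; filled points have an adjusted p under 0.05. Orange points lie to the right of 0 in every row except those of MRTO4 and RRP1B, and the blue points of BYSL, NOB1, TSR1, RRP12, NOP56, BOP1, NOP2, EBNA1BP2 and RRP1 are filled and to the left of 0.

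Factors of 60S assembly rose after E2F1 siRNA in 8 of 13 genes (61.5%, against 20.5% of all genes) and fell in 1 (median 0.25). After E2F3 siRNA 4 rose and 4 fell (30.8% each, against 21.1% and 16.4% of all genes, median 0.08). In the direct comparison 8 were lower (61.5%, against 22% of all genes) and 2 higher (15.4%, against 23.5%), with a median of -0.30. RRP1 and RRP1B are paralogs of one yeast protein of early 60S assembly and lie 93.4 kb apart on chromosome 21 (43789513-43805293 and 43659548-43696079 on GRCh38). RRP1 was at 18.96, 19.52 and 19.25 FPKM in control, 25.63, 24.88 and 26.03 with E2F1 siRNA, and 13.45, 11.55 and 12.95 with E2F3 siRNA. RRP1B was at 28.16, 29.69 and 28.83 FPKM in control, 20.87, 21.33 and 21.73 with E2F1 siRNA, and 34.63, 32.73 and 33.2 with E2F3 siRNA. Both had control in the middle without overlap, in opposite order.

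RRP1 rose by 0.39 after E2F1 siRNA (SE 0.06; adjusted p = 7.79e-04) and fell after E2F3 siRNA (log2 -0.57, SE 0.06; adjusted p = 7.68e-05). RRP1B fell after E2F1 siRNA (log2 -0.42, SE 0.05; adjusted p = 8.05e-05) and rose by 0.21 after E2F3 siRNA (SE 0.05; adjusted p = 0.00629). Between the knockdowns RRP1 differed by -0.96 (adjusted p = 1.66e-06) and RRP1B by 0.63 (adjusted p = 4.35e-06). The ratio of RRP1 to RRP1B was 0.657 to 0.673 in the control libraries, 1.17 to 1.23 after E2F1 siRNA and 0.353 to 0.39 after E2F3 siRNA. The RRP1B transcript shares no 50-base stretch with another gene, and for RRP1 the share was 2.2%.

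NOC2L, of the complex that moves early 60S precursors through the nucleolus, was at 106.75, 98.79 and 98.8 FPKM in control, 138.28, 151.85 and 145.15 with E2F1 siRNA, and 110.89, 113.77 and 110.25 with E2F3 siRNA. It rose by 0.51 after E2F1 siRNA (SE 0.05; adjusted p = 2.42e-05). Its rise of 0.14 after E2F3 siRNA (adjusted p = 0.042) was lost without control replicate 2 or 3, E2F1 siRNA replicate 3 or any 1 E2F3 siRNA library (log2 0.12 to 0.15). EBNA1BP2, a nucleolar 60S factor, was at 131.25, 131.88 and 129.1 FPKM in control, 153.56, 156.38 and 176.46 with E2F1 siRNA, and 116.92, 112.27 and 112.68 with E2F3 siRNA. It lay above control after E2F1 siRNA (log2 0.31; adjusted p = 0.00122) and below it after E2F3 siRNA (log2 -0.20; adjusted p = 0.0141).

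NOP2, an rRNA cytosine methyltransferase known as a proliferation antigen, was at 71.21, 68.32 and 70.93 FPKM in control, 75.07, 83.6 and 84.87 with E2F1 siRNA, and 56.94, 61.35 and 60.15 with E2F3 siRNA. It had the same order (log2 0.21, adjusted p = 0.0133, and log2 -0.23, adjusted p = 0.00715), and the first call was lost without E2F1 siRNA replicate 3 (log2 0.17; adjusted p = 0.0515). NOP2 shares 83.3% of its 50-base stretches with an overlapping gene model, AC006064.6, at 3.96 to 12.62 FPKM. The sum of both entries, added after the values were seen, was 72.28 to 81.21 FPKM in the control libraries, 87.69 to 94.39 after E2F1 siRNA and 67.32 to 68.36 after E2F3 siRNA, with no overlap.

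PES1, BOP1 and WDR12 form the PeBoW complex, which is needed to process the large subunit rRNA. PES1 rose after both siRNAs (log2 0.43, adjusted p = 2.41e-04, and log2 0.20, adjusted p = 0.0194), the latter call lost without control replicate 1 or 3 or E2F3 siRNA replicate 1 (log2 0.17 to 0.20). BOP1 was called higher after E2F1 siRNA (log2 0.16; adjusted p = 0.0475) and lower after E2F3 siRNA (log2 -0.22; adjusted p = 0.0114). The first of these was lost when any 1 control or E2F1 siRNA library or E2F3 siRNA replicate 2 was left out (log2 0.14 to 0.18). WDR12 was not called against control (log2 0.26 and -0.05), and its difference between the knockdowns (log2 -0.30; adjusted p = 0.0444) was lost without E2F1 siRNA replicate 2 or 3 or E2F3 siRNA replicate 1 or 3 (log2 -0.29 to -0.26). Without control replicate 2 or E2F1 siRNA replicate 1, WDR12 was called higher after E2F1 siRNA (log2 0.38 and 0.34).

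NIP7, a small 60S factor named here after its values were seen, was at 38.3, 38.04 and 40.98 FPKM in control, 40.06, 38.2 and 40.52 with E2F1 siRNA, and 49.94, 47.3 and 50.92 with E2F3 siRNA. The E2F3 siRNA libraries lay above all 6 others (log2 0.33, adjusted p = 6.52e-04, against control, and 0.31, adjusted p = 6.87e-04, against E2F1 siRNA), and the E2F1 siRNA libraries overlapped control (log2 0.02; adjusted p = 0.806). NIP7 shares 20.2% of its exonic bases with COG8 on the opposite strand, which was at most at 12.93 FPKM. NOP16 and PPAN rose after E2F1 siRNA (log2 0.42, adjusted p = 1.04e-04, and 0.25, adjusted p = 0.0128) and were at 0.08 and 0.16 after E2F3 siRNA, neither called. NOC3L and MRTO4 were not called in any comparison, with changes between -0.08 and 0.15 against control. With 1 library left out, PPAN (without control replicate 3, log2 0.22) and NOC3L (without E2F1 siRNA replicate 2, log2 0.15) were called higher after E2F3 siRNA, and MRTO4 was called higher after E2F3 than after E2F1 siRNA (without E2F1 siRNA replicate 3, log2 0.17).

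The genes with and without an E-box were set side by side. Of the 22 genes with CACGTG in the promoter window, 16 rose after E2F1 siRNA (72.7%, median 0.30). Of the 23 genes without it 12 rose (52.2%, median 0.23), against 20.5% of all genes. After E2F3 siRNA 5 rose and 3 fell with the E-box (22.7% and 13.6%, median 0.07). Without it 8 rose and 4 fell (34.8% and 17.4%, median 0.08). The shares with the E-box are near the 21.1% and 16.4% of all genes. In the direct comparison 15 of 22 (68.2%) and 12 of 23 (52.2%) were lower, against 22% of all genes (medians -0.23 and -0.17). No test was made between these groups of genes. DHX37, LTV1, NOP14 and GAR1, which rose after E2F1 siRNA, hold the E-box, and so do MRTO4, PNO1 and NOC3L, which were not called.

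Some of the genes are also hosts of snoRNAs. snoRNA genes lie inside 9 of the 52 (17.3%), against 274 of 19881 protein-coding genes (1.4%). The hosts are POLR1C, NCL, GNL3, NOP56, NOP58, DKC1, WDR43, TSR1 and PPAN, and GNL3 holds the most, 6. Of these 9 hosts, 5 rose after E2F1 siRNA (55.6%, against 20.5% of all genes, median 0.21). After E2F3 siRNA 1 rose and 2 fell (11.1% and 22.2%, against 21.1% and 16.4% of all genes, median -0.03). The 43 others had medians of 0.27 and 0.07. For the 46 genes with little sequence in common with other genes, the counts after E2F1 siRNA were 29 higher (63.0%) and 1 lower (2.17%). After E2F3 siRNA they were 16 higher (34.8%) and 8 lower (17.4%), the latter share near the 16.4% of all genes.

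A wider list of 109 other ribosome biogenesis genes, all of them tested, was followed in the same fit. It too was chosen with earlier results of these data known. After E2F1 siRNA 45 rose (41.3%, against 20.5% of all genes) and 11 fell (10.1%, against 17.3%), with a median of 0.13. After E2F3 siRNA 25 rose (22.9%, near the 21.1% of all genes) and 24 fell (22%, against 16.4%), with a median of 0.04. In the direct comparison 46 were lower (42.2%, against 22% of all genes) and 12 higher (11%, against 23.5%), with a median of -0.11. The shares of the smaller groups that follow are read against the same shares of all genes. Of 38 further genes of the small subunit processome and 40S, 19 rose (50%) and 2 fell (5.26%) after E2F1 siRNA, and 10 rose (26.3%) and 9 fell (23.7%) after E2F3 siRNA. MPHOSPH10, a processome scaffold, rose from a control mean of 17.2 FPKM to 28 after E2F1 siRNA (log2 0.67; adjusted p = 4.19e-05), and NOL10 from 13.2 to 21.4 (log2 0.66; adjusted p = 1.17e-05). NOC4L fell after E2F3 siRNA (25.8 to 13.1 FPKM, log2 -0.93; adjusted p = 1.39e-05), while BMS1, a GTPase of the processome, rose (18.4 to 28.7 FPKM, log2 0.61; adjusted p = 4.15e-05).

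Among 35 further 60S genes, 13 rose (37.1%) and 4 fell (11.4%) after E2F1 siRNA, and 10 rose and 10 fell (28.6% each) after E2F3 siRNA. SENP3, a SUMO protease of 60S maturation, fell from 51.8 to 22.9 FPKM after E2F1 siRNA (log2 -1.14; adjusted p = 4.25e-07), and the GTPase GTPBP4 rose from 28.7 to 46.3 (log2 0.67; adjusted p = 4.49e-05). After E2F3 siRNA RBM28 fell from 45.4 to 23.6 FPKM (log2 -0.91; adjusted p = 1.44e-06) and RRP15 from 15.8 to 10.1 (log2 -0.61; adjusted p = 0.0133), the latter call lost without E2F3 siRNA replicate 1 (log2 -0.52; adjusted p = 0.0507). Of 14 exosome and rRNA trimming genes, 4 rose (28.6%, against 20.5% of all genes) and 1 fell (7.14%, against 17.3%) after E2F1 siRNA, and 1 rose (7.14%, against 21.1%) and 4 fell (28.6%, against 16.4%) after E2F3 siRNA. EXOSC3 rose after E2F1 siRNA (69.4 to 104 FPKM, log2 0.57; adjusted p = 2.53e-05), and EXOSC4 fell after E2F3 siRNA (26.9 to 19.5 FPKM, log2 -0.44; adjusted p = 0.00193).

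Of 13 other RNA polymerase I and initiation genes, 4 rose (30.8%, against 20.5% of all genes) and 3 fell (23.1%, against 17.3%) after E2F1 siRNA, and 2 rose (15.4%, against 21.1%) and 0 fell after E2F3 siRNA. POLR1G, a subunit of the polymerase, rose in both knockdowns, from 16.3 FPKM to 23.5 (log2 0.50; adjusted p = 8.14e-05) and 22.2 (log2 0.42; adjusted p = 2.72e-04). TAF1B, of the promoter selectivity factor, was called higher in the E2F1 knockdown (log2 0.55; adjusted p = 0.0431). That call was lost without control replicate 1 or 2, E2F1 siRNA replicate 1 or 2, or any 1 E2F3 siRNA library (log2 0.39 to 0.55). Of 9 genes of snoRNP assembly, 5 rose (55.6%) and 1 fell (11.1%) after E2F1 siRNA, and 2 rose (22.2%) and 1 fell (11.1%) after E2F3 siRNA. NUFIP1, an assembly factor of C/D particles, rose after E2F1 siRNA (7.37 to 10.4 FPKM, log2 0.45; adjusted p = 4.83e-04), and PIH1D1, of the chaperone complex R2TP, fell after E2F3 siRNA (68.8 to 46.8 FPKM, log2 -0.55; adjusted p = 8.76e-05).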

How the data were processed

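The study sequenced 9 HK1 libraries, 3 per group. Per the labels' protocols, a mirVana kit was used for RNA extraction and standard Illumina protocols for the libraries. The submitters' processing notes name Trimmomatic, TopHat, HISAT2, HTSeq, DESeq and build GRCh38. Their versions, roles and strand setting: not given in the sources used here. Values deposited by the authors are FPKM per gene, as named per the file headers. The values are not counts, so a count test was not used. limma 3.58.1 (R 4.3.3, with trend) was run on log2(FPKM + 1) over the 13777 entries that had an Ensembl identifier and reached 1 FPKM in 3 libraries or more, in one fit of 3 group means with 3 contrasts, two-sided tests and Benjamini-Hochberg adjustment over all of them. Per library, 12 text rows and 726 assembled loci were left out. Coordinates and names are those of GENCODE 29 on GRCh38.

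The 52 genes and the other lists were chosen with earlier results of these data known. Named genes were, per step, up to 5 with the largest called change in any contrast, every gene called lower against control at a log2 of -0.3 or below, and up to 2 per other list and knockdown; further ones are marked as chosen after their values were seen or given to account for all 52. Depth was read from the FPKM steps of single-exon genes, with 86.1 to 92.4% of low values within 0.25 of a whole step. The deviations of same-numbered libraries from their group means had correlations of -0.106 to 0.112. With 3 libraries per group these cannot show whether the numbers pair the libraries, and the main fit used no pairing. The fit was tested on simulated data with 50 genes changed at each fold, far fewer than were called here. It recovered 48% of 1.25-fold, 86% of 1.5-fold, 90% of 2-fold and 100% of 4-fold changes. Of its 170 calls, 8 were false. Small changes can thus be missed. Alternatives were other filters, a pseudocount of 0.1, 3 other scalings, only the 6 libraries compared, a replicate term, robust fitting, an adjusted p under 0.01, and each library left out.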

Additional observations from a re-analysis of the deposited data

How the results depend on the processing

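Over the 52 genes, 3 comparisons and all alternatives, 2961 values were recomputed: 0 reversed a call, 110 lost one, 27 gained one and 2824 kept their side of the threshold. After E2F1 siRNA the median change of 0.25 became 0.22 with RLE scaling and 0.22 with upper-quartile scaling, and 1849 genes of all tested were higher at an adjusted p under 0.01. After E2F3 siRNA the median of 0.07 became 0.03 with RLE scaling, and at an adjusted p under 0.01 10 of the 52 genes and 1723 of all genes were higher. Between the knockdowns the median of -0.22 became -0.17 with upper-quartile scaling. With 1 library left out, 30 to 34 genes were higher and 1 lower after E2F1 siRNA (median 0.23 to 0.28), 12 to 17 higher and 8 to 9 lower after E2F3 siRNA (median 0.06 to 0.10, the highest without E2F3 siRNA replicate 2), and 2 to 3 higher and 27 to 32 lower between them (median -0.24 to -0.21). The cause of these shifts was not tested. Calls lost with another scaling or filter were among those of BOP1, GNL3, NHP2, NOC2L, POLR1C, POLR1D, RRP9, UTP15, UTP18, UTP20, WDR12 and WDR43. With the replicate number as a block, 34 genes were higher and 1 lower after E2F1 siRNA, 16 higher and 9 lower after E2F3 siRNA, and 3 higher and 31 lower between them.

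The values are FPKM from 3 libraries per group, with depth known only relative to each other, so changes near the size of the spread between libraries can be missed. Strand use in counting and the assignment of reads shared with gene copies have no statement in the labels or headers. The shared reads touch PWP2, NOP2, PPAN, NPM1, LTV1 and RRN3 most. Strand use touches genes that share exonic bases with a gene on the opposite strand, among them HEATR1, NHP2, TSR1 and NIP7. Transcript levels say nothing of protein amounts or ribosome output, which were not analysed here.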
